A study of Caenorhabditis elegans with 2 samples.

Results

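The genes sls-2.1, sls-2.2 and sls-2.4 encode copies of the spliced leader 2 (SL2) RNA of the nematode Caenorhabditis elegans. They are 3 of the 18 sls-2 genes in the Ensembl annotation, which holds 129 small nuclear RNA (snRNA) genes among 46890 nuclear genes. The 3 were chosen by the authors' signal values: each has a strong region at the RNA gene in all 4 region lists on the genome build ce11. Those values are therefore given as a description with no test. The lists came from chromatin immunoprecipitation followed by sequencing (ChIP-seq), which maps where a protein lies on DNA. Per the labels, whole L4 larvae of strain OP337, with both sexes pooled, had been used in 2 biological replicates. These animals carried the mutation unc119(ed3) and the integrated transgene wgIs377, in which the forkhead gene fkh-10 is joined to TY1, EGFP and FLAG tags and accompanied by unc119. Both replicates belong to 1 group, and no list from animals without the tag was used here. The antibody is labelled fkh-10, the description names eGFP-fkh-10 as its target, the strain came from the CGC and a possible control experiment is named. Whole animals were assayed, so no region can be assigned to a cell type. The labels do not give the promoter that drives the transgene.

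SL2 RNA is a small nuclear RNA that gives up its own 5′ end. In trans-splicing, the spliceosome cuts the short leader from the RNA and joins it to the start of another gene's messenger RNA. In C. elegans the SL1 leader is put on many single genes and on the first genes of operons, while SL2 leaders go mainly to the downstream genes of operons. Genes of this class are transcribed by RNA polymerase II from short promoters, in which a proximal sequence element lies upstream of the start and is bound by the SNAP complex. FKH-10 is a forkhead factor, a class that binds DNA through a winged-helix domain.

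The upstream DNA and leader are shown because the strongest summits lay in or beside this short stretch. All 4 SL2 RNA genes sls-2.1 to sls-2.4 encode the same 22-base leader, while the other 14 encode different ones of 21 to 23 bases. The longest run of letters shared by the 100 bases upstream of all 3 members was 15 bases long, and stood at -65 to -51 from the start in each (the first base of the RNA is 0). It is in capitals below, within the 80 bases upstream and the leader of each gene, 5′ to 3′ on the gene's strand, from the RefSeq genome sequence of WBcel235 (ce11). The sequences lie at chrII:5844785-5844886 (plus strand), chrII:5543518-5543619 (plus), chrII:5544252-5544353 (minus), chrIII:12250385-12250487 (plus) and chrIII:7142211-7142312 (plus). The last 2 genes, shown for contrast, lack the word.
sls-2.1: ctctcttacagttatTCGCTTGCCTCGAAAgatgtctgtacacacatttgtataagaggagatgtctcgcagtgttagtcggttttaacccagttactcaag
sls-2.2: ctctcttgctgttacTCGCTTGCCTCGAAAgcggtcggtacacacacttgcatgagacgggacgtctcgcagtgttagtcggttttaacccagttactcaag
sls-2.3: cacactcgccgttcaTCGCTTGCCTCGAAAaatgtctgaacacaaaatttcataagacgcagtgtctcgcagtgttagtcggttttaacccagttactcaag
sls-2.8: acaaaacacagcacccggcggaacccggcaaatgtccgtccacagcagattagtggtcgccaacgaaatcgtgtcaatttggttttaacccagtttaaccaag
sls-2.18: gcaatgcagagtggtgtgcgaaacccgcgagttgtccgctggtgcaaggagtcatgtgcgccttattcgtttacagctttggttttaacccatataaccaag

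The word was sought on both strands and had 4 exact matches in the nuclear genome. They lay upstream of sls-2.1, sls-2.2, sls-2.3 and sls-2.4. It was thus in the upstream 100 bases of 4 of 18 sls-2 genes, against 4 of 46886 gene starts, or 0.00853%. In the other 14 copies the best match in that window had 6 to 8 mismatches. The word was found by comparing the members with each other, so its presence in them is no finding, but its presence at sls-2.3 was not used in the choice. At the members the RNAs were 90.9 to 96.4% identical and the 100 bases before them 70.2 to 79.0% identical. sls-2.3 was 92.7 to 97.3% identical to the members in the RNA and 67.0 to 75.7% upstream. The word's match is a description of letters and does not show which protein, if any, lies on it.

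A region is an interval called by the authors, and its summit is the base that they marked within it by an offset. The irreproducible discovery rate (IDR) list holds 2253 regions past the authors' threshold over both replicates. The relaxed lists hold strong regions and background calls together, with 19381 regions in all when replicates were pooled, 30000 in replicate 1 and 28886 in replicate 2. The pooled and IDR lists derive from the same 2 libraries, so the 4 lists are not independent. Signal is the authors' value per region. Its scale and the read depth are unknown, so regions are ranked within a list, with rank 1 the strongest. The tagged gene itself, fkh-10, had 0 summits within 20000 bp in each of the 4 lists. At unc-119 there were 1 IDR, 12 pooled, 16 replicate 1 and 14 replicate 2 summits within that distance. No share over other genes was computed for this distance, so these counts have no background beside them.

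At sls-2.1 the strongest region stood among the 10 strongest of every list. The gene (WBGene00004833) lies on chromosome II from 5844865 to 5844974 on the plus strand. Its IDR region from 5844596 to 5844985 had a signal of 226 and rank 5. The signal was 218.5 (rank 6) in the pooled list, 108 (rank 4) in replicate 1 and 109.6 (rank 10) in replicate 2. The 2 replicates therefore placed it alike. Its summit was 74 bases upstream of the start in the IDR and pooled lists, 68 bases upstream in replicate 1 and 63 bases upstream in replicate 2. In all 4 lists the summit was in the upstream 100 bases, beside or in the 15-base word.

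sls-2.4 came next. The gene (WBGene00004836) spans 4172206 to 4172315 on the plus strand of chromosome I. Its IDR region from 4172032 to 4172421 had a signal of 173 and rank 19. The signal was 176.6 (rank 19) in the pooled list, 84.3 (rank 16) in replicate 1 and 95.3 (rank 22) in replicate 2. The position was less settled than the rank: the summit stood at -45 in the pooled list, -33 in replicate 1, -8 in replicate 2 and 21 in the IDR list, all relative to the start.

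sls-2.2 had the lowest ranks of the 3. The gene (WBGene00004834) lies on chromosome II from 5543598 to 5543707 on the plus strand. Its IDR region from 5543406 to 5543795 had a signal of 141 and rank 42. The signal was 158 (rank 28) in the pooled list, 77.9 (rank 20) in replicate 1 and 79.4 (rank 46) in replicate 2. The summit stood at -54 in the pooled list and -44 in replicate 1, both upstream, but at 3 in the IDR list and 47 in replicate 2, both inside the RNA. For sls-2.2 and sls-2.4 the IDR and pooled summits differed by more than 50 bp, which happened at 7.86% of the 2253 IDR regions, where the median difference was 3 bp. Over both replicates the order of the ranks was sls-2.1, sls-2.4 and then sls-2.2. The single values for sls-2.2 and sls-2.4 in replicate 1 were ranks 20 and 16, and with 2 replicates their order was not tested.

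**Figure D1:**
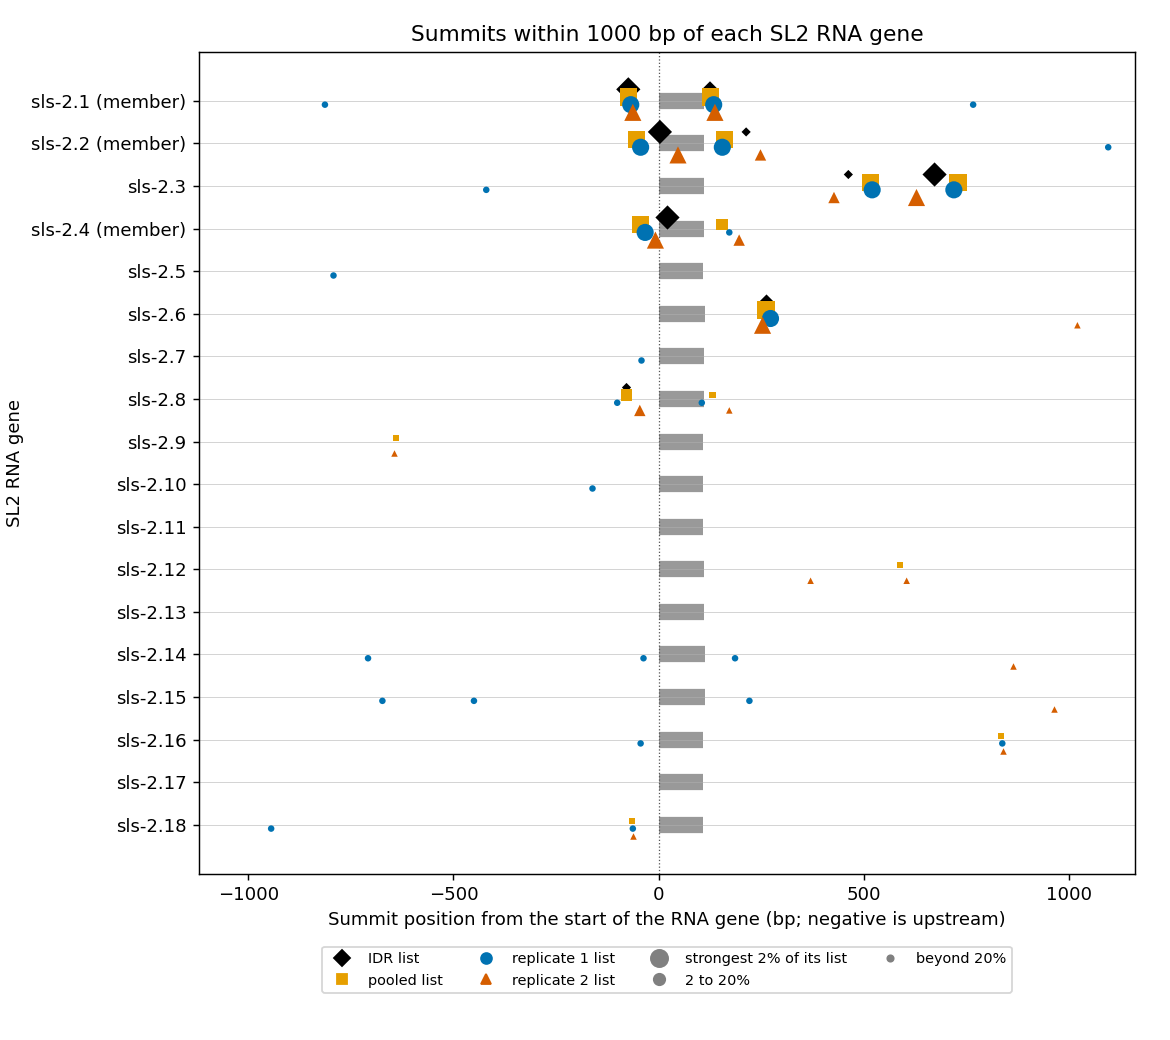
Summit positions (bp from the RNA gene's start, horizontal axis) in the 4 lists for the 18 SL2 RNA genes (vertical axis); grey bars are the RNA genes, colour and shape give the list, and the marker grows with the region's place in its list. Large markers stand near the start at sls-2.1, sls-2.2 and sls-2.4, and at sls-2.3 they stand over 400 bp downstream, where sls-2.2 lies. At sls-2.6 they stand 253 to 271 bp past the start in the 3 relaxed lists.

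A second region stood on the other side of each member. At sls-2.1 its summit was 125 to 137 bases past the start over the 4 lists, with ranks of 71 (IDR), 57 (pooled), 45 (replicate 1) and 157 (replicate 2). At sls-2.2 it was 155 to 248 bases past the start, with ranks of 1331 (IDR), 102 (pooled), 132 (replicate 1) and 3951 (replicate 2). At sls-2.4 the IDR list had no second region, and the ranks were 940 (pooled), 20828 (replicate 1) and 3906 (replicate 2). The second region was thus strong in both replicates at sls-2.1, in replicate 1 at sls-2.2, and in neither at sls-2.4. The first region's signal was 1.70 and 1.77 times the second's at sls-2.1 in replicates 1 and 2, 1.53 and 4.77 times at sls-2.2, and 10.7 and 5.69 times at sls-2.4.

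The summits of these pairs were 199 to 214 bp apart. In the 4 lists, 1% of neighbouring summits were closer than 200 to 207 bp, so the members' pairs were at the lower end of the spacing that the lists hold. A neighbouring summit within 250 bp was found for 3.15% of IDR, 12.2% of pooled, 13.4% of replicate 1 and 16.2% of replicate 2 regions. Among the 100 strongest regions of each list, 6, 24, 29 and 30 had one. The pooled regions at sls-2.1 and sls-2.4 that held the first summit were 107 and 106 bp wide, while 99.5% of pooled regions were 390 bp wide. Whether a pair reflects 2 bound places or the way regions were called was not tested.

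Signal in the 2 replicates was close at the members. The log2 ratio of replicate 2 to replicate 1 was 0.02 at sls-2.1, 0.03 at sls-2.2 and 0.18 at sls-2.4. Over the 2013 IDR regions found in both replicate lists its median was 0.40, with an SD of 0.72 and quartiles of -0.01 and 0.85. The members lay below that median and above the lower quartile. Members had been chosen for strength in both replicates, so these ratios support nothing further.

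sls-2.3 differed from the members in having no summit at its own start in any list, although it carries the same leader and the same upstream word. It lies beside sls-2.2 on chromosome II, from 5544164 to 5544273 on the minus strand, and the genes point towards each other with their starts 675 bp apart. From the word upstream of sls-2.2 the nearest summit was 4 bp away in the pooled list, 14 bp in replicate 1, 105 bp in replicate 2 and 61 bp in the IDR list. For the word upstream of sls-2.3 those distances were 573, 362, 485 and 520 bp. The nearest of these, in replicate 1, ranked 25576 of 30000, with a signal of 7.03. Such distances were 5 to 16 bp at sls-2.1 and 13 to 79 bp at sls-2.4. With 1 such gene, the contrast is a description and has no test. An antisense noncoding RNA gene is annotated over sls-2.3 (C17C3.22), as it is over sls-2.2 (C17C3.23) and sls-2.4 (R12E2.18), and none overlaps sls-2.1.

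**Figure D2:**
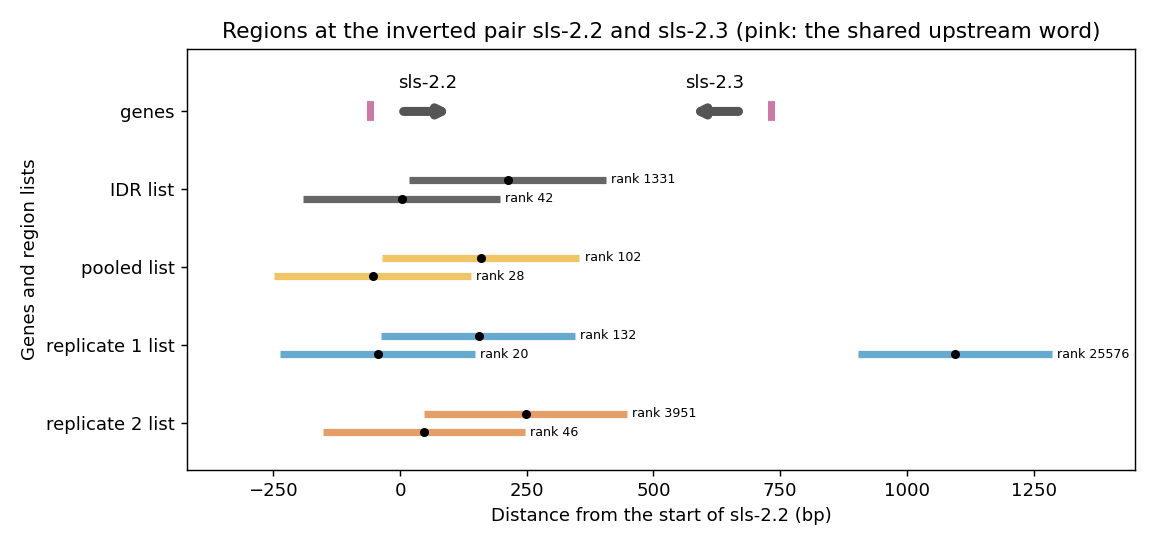
The inverted pair sls-2.2 and sls-2.3 (arrows point in the direction of transcription, pink marks the 15-base word), with the regions of each list as bars, their summits as dots and their ranks, against distance from the start of sls-2.2 in bp. In the 4 lists the paired regions cover sls-2.2 and stop before sls-2.3; the remaining bar is the replicate 1 region of rank 25576.

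The repeated part of these genes was measured because reads that match several copies cannot be placed in one. Of the 36-base words that lie wholly inside the RNA, 41.3% occurred once in the nuclear genome at sls-2.1 and at sls-2.3, 53.3% at sls-2.2 and 78.7% at sls-2.4. The others occurred in up to 4 copies. Of the 36-base words wholly inside the 100 bases upstream, 100% occurred once at all 4 genes. With 50-base words the shares inside the RNA were 50.8% at sls-2.1 and sls-2.3, 65.6% at sls-2.2 and 96.7% at sls-2.4. sls-2.1 and sls-2.3 thus had the same share of single-copy words inside the RNA. The sources used here do not give the read length or the treatment of reads with several matches, and their part in the summit positions was not tested.

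**Figure D3:**
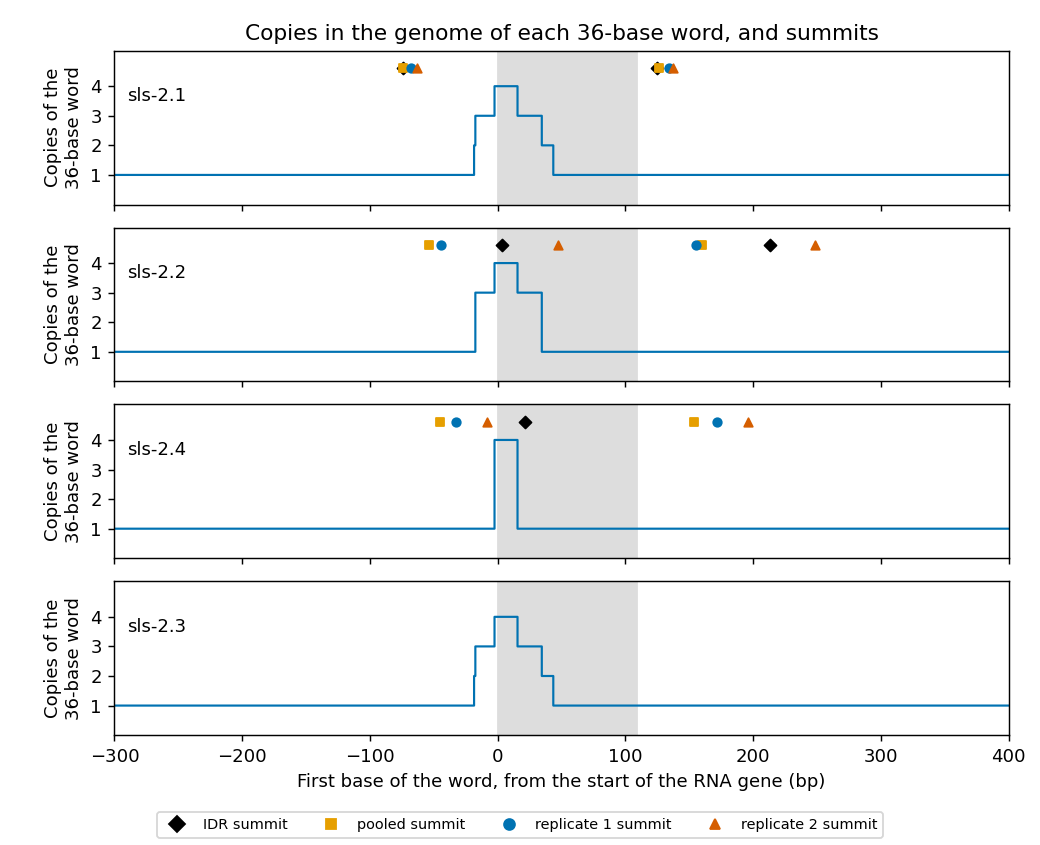
Number of copies in the nuclear genome (vertical axis) of the 36-base word that starts at each position from the RNA gene's start (horizontal axis, bp), for the 3 members and sls-2.3; grey is the RNA gene and the markers at the top are summits. Copies reach 4 around the start of each gene and are 1 for words that begin further upstream.

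The starts of the coding neighbours were further from the strongest IDR summits than the starts of the RNA genes were. At sls-2.1 the IDR summit was 74 bp from the RNA start and 986 bp upstream of the start of H41C03.3, a protein-coding gene at 5845777 to 5850309. The start of ZK1248.17, on the minus strand, was nearer, at 750 bp, but the summit lay past that gene's far end. On the other side, the start of nep-25, of the neprilysin family of metallopeptidases, was 2551 bp away. The far end of nep-25, at 5844620, lay inside the IDR region. Within 500 bp of the start of H41C03.3 there were 0 IDR, 0 pooled, 1 replicate 1 and 1 replicate 2 summits. The strong region is thus not repeated at the coding start.

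At sls-2.4 the IDR summit was 21 bp from the RNA start and 638 bp upstream of the start of egg-5, a pseudophosphatase gene of the oocyte-to-embryo transition (4168984 to 4171589, minus strand). The egg-5 start had 0 summits within 500 bp in each of the 4 lists. The start of R12E2.11 was 1397 bp away, but its far end, at 4172438, lay inside the second region of each relaxed list. At sls-2.2 the nearest coding starts were those of ins-13, an insulin-like peptide gene, at 1263 bp, and of C17C3.24, at 1816 bp. Promoter windows of 1000 bp that give these regions to H41C03.3 and egg-5 therefore take in an RNA gene much nearer the summit. Distance alone does not show which gene a bound protein acts on.

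Each of the other sls-2 genes with a region of its own had a lower signal than the members in each list where it had one. The members had been chosen by signal, so this order is a description and no support. Within 1000 bp of the gene, 6 of 18 had an IDR summit. They were the 3 members, which the choice had fixed, and 3 of the 15 others. Over all annotated genes the share was 7.35%, and over the 111 snRNA genes outside the family it was 6.31%. Over protein-coding genes it was 10.3%. Of the other 3, sls-2.3 was reached by the regions of sls-2.2. sls-2.6 had a region 261 bases past its start (signal 91.9, rank 296), inside hgo-1, the homogentisate oxidase gene in which it lies. Its signal was 97.6 (rank 200) in the pooled list, 44.8 (rank 229) in replicate 1 and 53.8 (rank 296) in replicate 2, the nearest to sls-2.2 among the copies with a region of their own. sls-2.8 alone of the 15 had an IDR summit just upstream of its start, at -80.

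In the relaxed lists, background calls made near regions common: 10 of 18 sls-2 genes had a pooled summit within 1000 bp against 44.7% of all genes. For replicate 1 it was 13 of 18 against 58.7%, and for replicate 2 it was 12 of 18 against 58.8%. The counts include the members, which the choice had fixed. Among the other 15, 7, 10 and 9 had a pooled, replicate 1 and replicate 2 summit, near those shares. sls-2.11, sls-2.13 and sls-2.17 had 0 summits within 1000 bp in the 4 lists.

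sls-2.8, on chromosome III from 12250465 to 12250575, placed its summit like the members but was weak in replicate 1. The IDR region had a signal of 51.6 and rank 1544 of 2253. The signal was 12.01 (rank 7120) in replicate 1 and 40.3 (rank 755) in replicate 2, a log2 ratio of 1.75. The summit stood at -80 in the IDR list, -79 in the pooled list, -101 in replicate 1 and -46 in replicate 2. It had a second relaxed summit 105 to 172 bases past the start. In each relaxed list that summit also lay in the 100 bases upstream of the coding gene Y75B8A.23, so it cannot be assigned to sls-2.8. The coding starts of tim-1, a timeless homolog, and Y75B8A.23 were 221 and 275 bp from the IDR summit, so this region is less separated from coding starts than those of the members.

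Some other copies also had a summit just upstream of the start. A window of 100 bases upstream of the start, picked after the summits had been seen, held a summit of at least 1 list at 8 of 18 sls-2 genes, against 8.27% of all annotated genes. The 8 are the 3 members, sls-2.7, sls-2.8, sls-2.14, sls-2.16 and sls-2.18, so 5 of the 15 others, while 10 of the 15 had none. Among the 15 others the count by list was 1 for IDR against 0.633% of all genes, 2 for pooled against 3.24%, 4 for replicate 1 against 3.96% and 2 for replicate 2 against 4.44%. The members add 1, 3, 3 and 2, which the choice of strong regions at the gene bears on. At sls-2.18 the summit stood at -65 in the pooled list, -63 in replicate 1 and -62 in replicate 2, with ranks of 7567, 23107 and 10459. At sls-2.7 (-43), sls-2.14 (-37) and sls-2.16 (-44) such a summit was in the replicate 1 list alone, with ranks of 19239, 28004 and 9848. These ranks are deep in the relaxed lists. In replicate 1 a stronger call stood at -708 at sls-2.14 and at -944 at sls-2.18. The calls at -708 and -37 of sls-2.14 are also those at 221 and -450 of its neighbour sls-2.15. sls-2.16 and sls-2.18 are neighbours and share regions: the call at -944 of sls-2.18 is the one at -44 of sls-2.16, so their calls near the start are separate but their calls within 1000 bp are not.

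**Figure D4:**
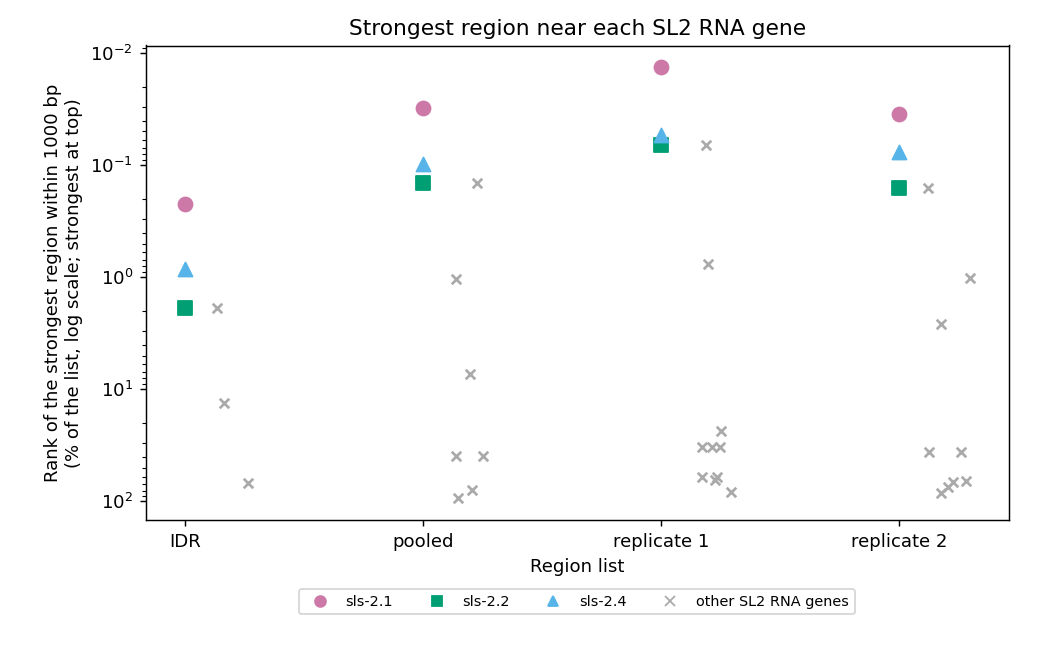
Rank of the strongest region within 1000 bp of each SL2 RNA gene, as a percentage of its list (vertical log axis, strongest at the top), in the 4 lists; genes with no region in a list have no point. The 3 members lie between 0.222% and 1.86% in the IDR list and between 0.0133% and 0.159% in the relaxed lists. The grey cross level with sls-2.2 is sls-2.3, which shares its regions. sls-2.6 lies between 0.763% and 1.03% in the relaxed lists.

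The members were also compared with the other snRNA genes. The 12 SL1 RNA genes, which lie in a repeated cluster on chromosome V, had 0 summits within 1000 bp in the 4 lists. Over all annotated genes the shares were 7.35% (IDR), 44.7% (pooled), 58.7% (replicate 1) and 58.8% (replicate 2). The SL1 RNA genes lie together and their repeated words were not counted, so their lack of summits has no reading here. Of the 99 snRNA genes outside both leader families, 7 had an IDR summit within 1000 bp, near the 7.35% of all annotated genes. The 3 genes most like the members, by distance in log2 rank over the 2 replicates, were F38E11.10, W05B2.8 and C52E4.8 (RefSeq symbols), at distances of 5.55, 6.94 and 7.84. They were thus not close: F38E11.10 (WBGene00014366, chromosome IV, 9444642 to 9444763) had ranks of 235 in replicate 1 and 218 in replicate 2. W05B2.8 (WBGene00014543, chromosome III, 10989679 to 10989780) had ranks of 261 and 800. C52E4.8 (WBGene00014291, chromosome V, 11980118 to 11980261) had ranks of 908 and 506. Their IDR summits stood at -53, -52 and -31 from the starts, all upstream. The region of C52E4.8 is also the one nearest the coding start of snr-4, 364 bp from the summit.

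Base composition and 3 searches for motifs were compared with all IDR regions. GC content in the 100 bp on either side of the IDR summit was 52.7% at sls-2.1, 48.8% at sls-2.2 and 46.8% at sls-2.4, against a median of 42.8% (quartiles 37.8 and 47.3) over all IDR regions. The repeat GAGAGAG, sought on both strands, was in 20.1% of IDR windows and in 0 of the 5 IDR windows at the members. The forkhead word GTAAACA was in 3.60% and in 0 of the 5. With ATAAACA allowed too, besides GTAAATA and also the word ATAAATA, the share was 13.98%, and 1 of the 5, the second region at sls-2.2, held such a word. That these letters are missing from a window says nothing of where the factor binds.

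The rule's distance of 1000 bp from the gene decided little. The last summits inside it were replicate 1 calls 813 bp from sls-2.1 (signal 7.56) and 986 bp from sls-2.2 (signal 7.03). The first outside were a replicate 2 summit 1256 bp from sls-2.1 (signal 9.35) and a pooled summit 1362 bp from it (signal 15.1).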

How the data were processed

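ChIP-seq region lists from 2 biological replicates of 1 group were used; the fragment size was 150 to 350 bp per the labels. The authors deposited 4 lists on ce11 in narrowPeak order, per the file descriptions: a signal per region, a −log10 value per region, and a summit offset. The deposited −log10 values share a ceiling (76.1% of IDR regions), so signal alone ranked regions. The sources used here do not give the aligner, caller, thresholds or read depth; signal errors are therefore unknown, and the spread between replicates is given. The 4 ce10 lists were not used.

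Positions are 1-based. Every region ended inside its WBcel235 chromosome (the ce11 sequence). Genes came from Ensembl release 115 and sequence from RefSeq. A region belonged to a gene when its summit lay within 1000 bp of it. Summits were matched between lists at 100 bp. Replicate files shared 0 regions of equal position and signal.

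The members and gene lists were chosen with earlier results of these data known, and no test was made. Named genes are the members, the other sls-2 genes, coding neighbours, the 3 most similar snRNA genes and up to 4 of each list. The counting steps were tested on simulated data. Python 3.11.15, numpy 2.4.6 and pandas 2.3.3 were used.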

Additional observations from a re-analysis of the deposited data

How the results depend on the processing

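Of the SL2 RNA genes, 6 had an IDR summit within 1000 bp. The count was 5 or 6 with other distances, with overlap and with the stronger IDR regions. It was 10 in the pooled list, which holds background calls. To leave a replicate out, the 2253 strongest regions of the other replicate's relaxed list took the place of the IDR list. This gave 6 without replicate 1 and 5 without replicate 2. In both relaxed replicate lists 10 had a summit, 6 at 200 bp and 5 when each list was cut to its 2253 strongest regions. The members had a summit in the lists used under each of the distances and with either replicate's own list left out (3 of 3). The choice of members had fixed this count at 1000 bp, so it is no support. The IDR and pooled lists were kept throughout and derive from both replicates, so no replicate was wholly left out. Summit positions moved by more than the replicate SD at sls-2.1 (-68 in replicate 1 and -63 in replicate 2, against -74) and at sls-2.4 (-45 pooled, -33 replicate 1, -8 replicate 2, against 21). At sls-2.2 the shifts were larger than at sls-2.1 (-54 pooled, -44 replicate 1 and 47 replicate 2, against 3), but its replicates also differed most from each other. The cause was not tested. Ranks as a percentage of the list fell from 0.222% in the IDR list to 0.0310% (pooled), 0.0133% (replicate 1) and 0.0346% (replicate 2) at sls-2.1, from 1.86% to 0.144%, 0.0667% and 0.159% at sls-2.2, and from 0.843% to 0.0980%, 0.0533% and 0.0762% at sls-2.4, since the relaxed lists are longer. The upstream window, chosen after seeing the data, gave 8 genes at 100 bases, 6 at 50 and 8 at 150. Depth is unknown, so no limit of detection can be given for copies without a region.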

Other observations

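Genes for proteins of spliced leader and snRNA metabolism had modest regions. Of 26 listed, 25 were annotated and 7 had an IDR summit within 1000 bp, against 10.3% of protein-coding genes, a share counted over genes of all lengths; the difference was not tested. The 4 with the highest signal were snr-1 (signal 90.9, rank 316), snr-4 (74.9, rank 617), cpf-2 (54.98, rank 1361) and snr-2 (54.3, rank 1407). snr-1, snr-2 and snr-4 encode Sm proteins, which form the ring on spliceosomal and spliced leader RNAs, and cpf-2 encodes a subunit of the cleavage stimulation factor, which acts at 3′ ends. The region of snr-4, with its summit 364 bp upstream of the coding start, is also that of the snRNA gene C52E4.8, so it cannot be assigned to either. In replicates 1 and 2 the signal was 27.3 and 61.6 at snr-1, 29.03 and 45.9 at snr-4, 20.1 and 32.3 at snr-2, and 29.2 and 20.96 at cpf-2. It was thus higher in replicate 2 at the 3 Sm protein genes and lower at cpf-2, where the median log2 ratio over the IDR regions in both replicate lists was 0.40.

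Of the 10 smY RNA genes, which encode small nuclear RNAs of nematodes, smy-1 had an IDR summit within 1000 bp, 308 bases past its start (signal 54.3, rank 1402). It was named after its value was seen, and the share over all annotated genes was 7.35%. In the 100 bases upstream, 0 of the 10 had a summit in any of the 4 lists, against 8.27% of all annotated genes. With 10 genes, both counts are near the background.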
